A study of Mus musculus with 8 samples.

Results

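The 10 genes described here carry or restrain signals of the interleukin-6 (IL-6) cytokine family: the receptor subunits Il6st, Il6ra, Lifr and Osmr, the transcription factor Stat3, the feedback inhibitors Socs1, Socs2, Socs3 and Cish, and the kinase Pim1. They were taken by symbol from the 32285 genes listed in single-cell RNA sequencing of mouse periosteum, the cell layer on the outer surface of bone. The choice was made with earlier results of these data known. All 10 were detected. The study compared periosteal cells of mice with diet-induced diabetes and controls. Both groups were C57BL/6J male mice 16 weeks old, fed Normal diet chow (ND) or High fat diet chow (HFD). Cells were released from left femurs and tibias with collagenase I and dispase II and captured in droplets, where transcripts are tagged with a barcode of their cell and with a molecular tag (UMI) that lets copies of 1 transcript be counted once. The labels list 4 samples per diet, but the counts form 1 matrix per diet in which no cell can be assigned to a mouse. All values therefore compare 2 libraries, diet and library cannot be told apart, and no test between diets was possible. All intervals given are exact, at 95%, and reflect counting error alone.

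Cytokines of the IL-6 family signal through gp130, the product of Il6st, which pairs with a receptor subunit that sets which ligand is bound: Il6ra for IL-6, Lifr for leukemia inhibitory factor and Osmr for oncostatin M. Paired receptors activate JAK kinases, which phosphorylate STAT3, and STAT3 drives genes that include its own inhibitor Socs3. Socs1, Socs2 and Cish are related inhibitors, Socs2 and Cish being best known as targets of STAT5 downstream of growth hormone and blood cell cytokines. Pim1 encodes a survival kinase induced by both STATs. In bone, this family acts on osteoblasts and their precursors and on the supply of osteoclasts.

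The libraries held 48558889 (ND) and 49940976 (HFD) UMIs. After removal of barcodes with 500 or fewer or 8000 or more detected genes or with at least 20% mitochondrial UMIs, 6029 ND and 6224 HFD cells remained, with medians of 4610 and 4823.5 UMIs. Cells were grouped by clustering without the 10 genes and named from marker genes. Neutrophil-like cells were the most numerous (2400 in ND and 2429 in HFD) and B cell-like cells the next (1553 and 1495). The other classes were mesenchymal-like (410 and 672), macrophage/monocyte-like (532 and 536), hematopoietic progenitor-like (225 and 194), T cell-like (277 and 200), NK-like (131 and 108) and endothelial-like cells (117 and 231). These 8 classes had at least 50 cells in each library and entered the counts below. Dendritic-like, basophil and mast-like, pericyte and smooth muscle-like and erythroid-like cells numbered 26 to 59 per library and are given as levels. Mesenchymal-like cells, the stromal cells that define periosteum, made up 6.80% of ND and 10.8% of HFD cells. They were named from 8 markers. The 2 libraries shared 14 barcodes among kept cells.

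Feedback inhibitors of this pathway are controlled by STAT binding sites near their start. Stretches of the Socs3 and Cish promoters are shown because, of the 9 members with a promoter entry, these 2 held the pattern TTCNNNGAA, which reads the same on both strands (RefSeq sequence, GRCm38.p6, which is mm10; 250 bases before to 50 after the RefSeq start). Capitals mark the matches, and both stretches run 5′ to 3′ along the gene.
Socs3: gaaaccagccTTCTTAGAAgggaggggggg
Cish: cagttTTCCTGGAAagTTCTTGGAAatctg
The Socs3 stretch, chr11:117969501-117969530 on the minus strand, has its match 154 bases before the RefSeq start and lies in an intron of 1 annotated Socs3 transcript and in no exon. The Cish stretch, chr9:107296654-107296683 on the plus strand, has matches at the start itself and 11 bases after it, and lies in an untranslated exon of 1 Cish transcript. The pattern occurs in 8.3% of 32851 promoters of the same length. A stricter pattern contained in it, TTCCNGGAA, occurs in 1.15% and among the members only in Cish. A match is a description of the letters and no evidence of binding.

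Each level below is the number of UMIs of a gene per 1000000 UMIs of its class (UPM). Gene positions are on mm10. Levels are not divided by gene length and are compared between classes and diets, not between genes. Il6st (chr13:112464070-112510086, plus strand), the shared signaling subunit, was highest in endothelial-like cells, with 215 UPM (179 to 256) in ND and 231 (204 to 261) in HFD. Mesenchymal-like cells followed with 154 (143 to 165) and 169 (159 to 179). In both libraries the intervals of these classes overlapped neither each other nor the next class. T cell-like cells held 41.1 and 34.9 UPM, pericyte and smooth muscle-like cells 34.8 and 37.3, and macrophage/monocyte-like cells 21.3 and 23.3. Neutrophil-like cells stood at 1.38 and 2.06 UPM, and basophil and mast-like cells had no Il6st UMI in either library, which allows up to 5.39 and 5.43 UPM.

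Il6ra (chr3:89864059-89913196, minus strand), which binds IL-6 itself, had another distribution. Macrophage/monocyte-like cells were highest, with 129 UPM (121 to 138) in ND and 127 (118 to 135) in HFD, above dendritic-like cells with 69.9 and 44.1. Neutrophil-like cells held 38.5 and 28.3 UPM and T cell-like cells 33.3 and 30.2, with overlapping intervals. The endothelial-like cells that led for Il6st had 8 and 13 UMIs of Il6ra (13.9 and 11.6 UPM). Basophil and mast-like cells had no Il6ra UMI in either library, which allows up to 5.39 and 5.43 UPM, and erythroid-like cells had none, which allows up to 5.38 and 6.27.

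Lifr (chr15:7090614-7197489, plus strand) and Osmr (chr15:6813577-6874969, minus strand), neighboring genes on chromosome 15, were highest in the vascular and stromal classes. Lifr was at 106 UPM (80.8 to 136) in ND and 131 (111 to 154) in HFD endothelial-like cells, 66.5 and 87.0 in pericyte and smooth muscle-like cells and 46.7 and 69.3 in mesenchymal-like cells. Dendritic-like cells held 74.3 and 53.9 UPM of Lifr, on 34 and 33 UMIs, and their interval overlapped those of the vascular classes in ND. T cell-like cells had no Lifr UMI in either library, which allows up to 1.56 and 2.01 UPM. Osmr was at 81.4 and 76.7 UPM in endothelial-like, 79.2 and 62.1 in pericyte and smooth muscle-like and 29.5 and 38.4 in mesenchymal-like cells. In each of the other 9 named classes Osmr had at most 8 UMIs per library. Cells with an Osmr UMI made up 22.2% of ND and 25.1% of HFD mesenchymal-like cells, against 0.167% and 0.329% of neutrophil-like cells, whose median depth was 4125 and 4303 UMIs instead of 10660 and 9526. With every cell thinned to 1000 UMIs the shares were 3.66% and 3.16% in mesenchymal-like cells.

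Receptor subunits met in the same cells to different degrees. UMIs of both Il6st and Osmr were seen in 17.8% (14.2 to 21.9) of ND and 21.1% (18.1 to 24.4) of HFD mesenchymal-like cells, and of both Il6st and Lifr in 17.3% and 20.7%. Both Il6st and Il6ra were seen in 17.3% (13.8 to 21.3) of ND but 9.38% (7.28 to 11.8) of HFD mesenchymal-like cells. Among macrophage/monocyte-like cells the share with Il6st and Il6ra was 16.4% and 19.6%. These are shares of cells with detected UMIs and depend on depth.

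Stat3 (chr11:100885098-100939540, minus strand) was spread over most classes. NK-like cells held 122 UPM (97.8 to 150) in ND and 151 (123 to 185) in HFD, neutrophil-like cells 120 and 106, endothelial-like cells 107 and 105 and mesenchymal-like cells 89.5 and 98.6. Pericyte and smooth muscle-like cells held 104.5 and 95.85 UPM and dendritic-like cells 103 and 121. From NK-like cells down to mesenchymal-like cells, the intervals of classes next to each other in rank overlapped in both libraries. B cell-like cells (41.7 and 43.3 UPM) and hematopoietic progenitor-like cells (33.1 and 41.8) stood lower, and erythroid-like cells had 2 and 1 UMIs.

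Socs3 (chr11:117966079-117970047, minus strand), which blocks gp130 receptors, marked the same vascular and stromal classes as Lifr and Osmr. Its level was 729 UPM (637 to 829) in ND and 520 (462 to 583) in HFD pericyte and smooth muscle-like cells, 709 and 579 in mesenchymal-like cells and 636 and 572 in endothelial-like cells, with overlapping intervals between neighbors in this order. After a gap came T cell-like cells with 120 and 125 UPM, NK-like cells with 116.3 and 106 and macrophage/monocyte-like cells with 105 and 85.5. Neutrophil-like cells, in which Stat3 was among the highest, held 24.3 and 18.6 UPM of Socs3.

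Socs1 (chr16:10782240-10785536, minus strand), an inhibitor of JAK kinases and of interferon signaling, was led by T cell-like cells with 114 UPM (98.9 to 130) in ND and 113 (96.2 to 131) in HFD. Mesenchymal-like cells held 83.9 and 73.0 and NK-like cells 75.2 and 51.5. Pericyte and smooth muscle-like cells stood at 50.7 and 94.1 UPM on 16 and 53 UMIs. Socs2 (chr10:95385362-95417180, minus strand), which restrains growth hormone signaling, was highest in endothelial-like cells with 104 UPM (79.3 to 134) and 108 (89.5 to 129), above mesenchymal-like cells with 65.4 and 31.4 and B cell-like cells with 27.1 and 30.3. Macrophage/monocyte-like and neutrophil-like cells held at most 1.94 UPM of Socs2.

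Cish (chr9:107296026-107302784, plus strand), a target of STAT5, was led by basophil and mast-like cells with 53.9 UPM (36.4 to 77.0) in ND and 85.1 (62.5 to 113) in HFD. T cell-like (42.7 and 32.2), NK-like (34.2 and 28.1) and endothelial-like cells (36.4 and 29.4) followed with overlapping intervals, and mesenchymal-like cells held 8.51 and 4.00. Pim1 (chr17:29490753-29496112, plus strand) was highest in most, but not all, of the blood cell classes. NK-like cells held 1146 UPM (1070 to 1226) in ND and 808 (740 to 881) in HFD, neutrophil-like cells 776 and 581, T cell-like cells 661 and 621, macrophage/monocyte-like cells 594 and 677 and B cell-like cells 417 and 439. Mesenchymal-like cells (262 and 186 UPM) and endothelial-like cells (210 and 187) stood lower. So did hematopoietic progenitor-like cells (189 and 246) and erythroid-like cells (109.5 and 194), the lowest classes in ND. In basophil and mast-like cells Pim1 was at 766 UPM (48 cells) in ND and 1298 (53 cells) in HFD, while the summed level of 10 neutrophil markers in that class was 14020 and 1332 UPM, and its part in the difference was not tested.

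**Figure D1:**
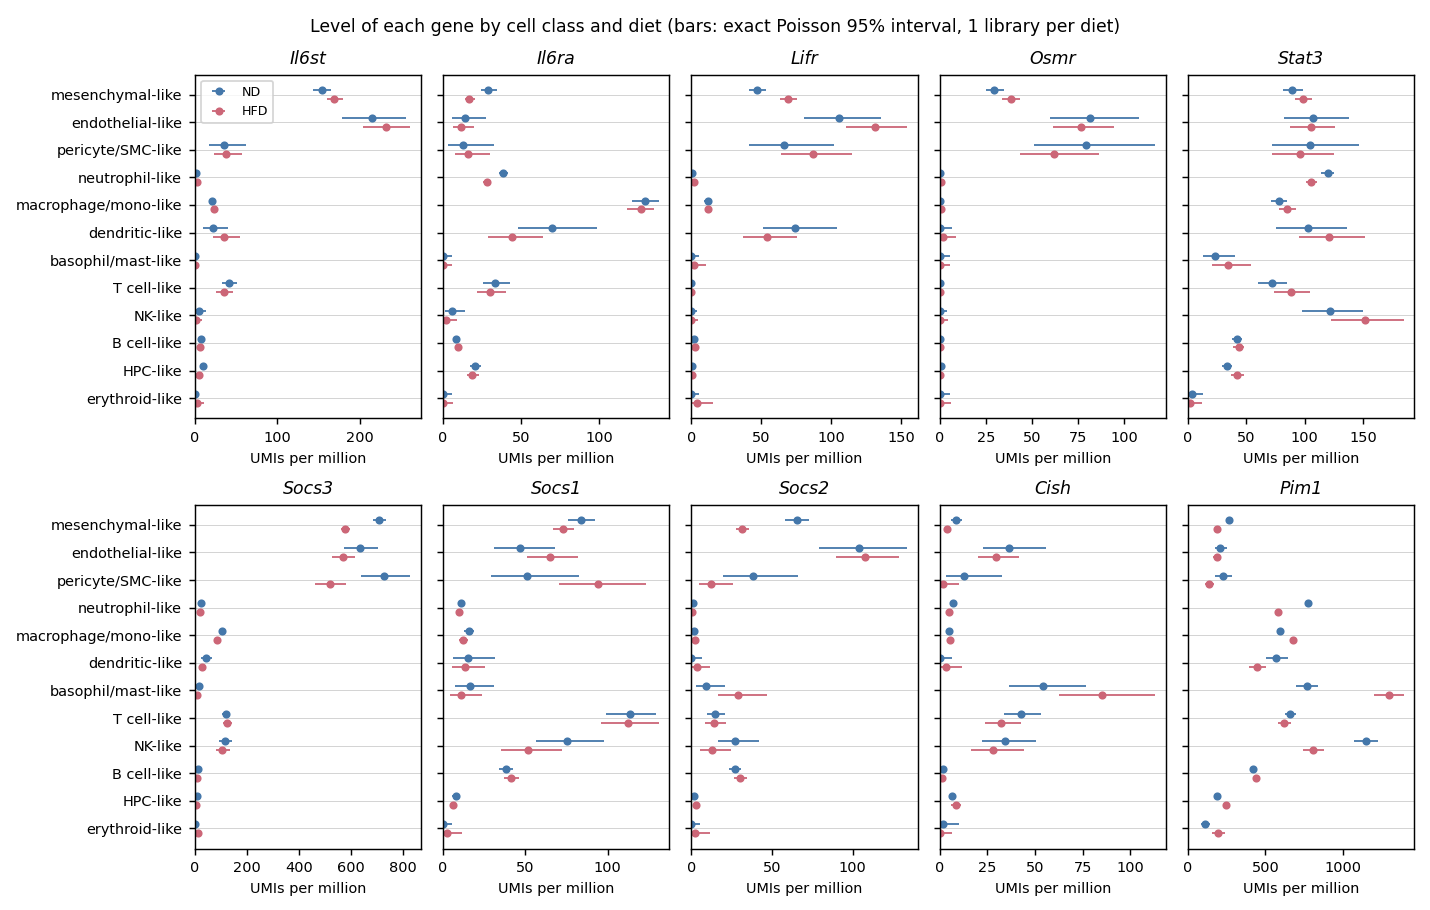
Levels of the 10 genes (x axes, UPM) in 12 named cell classes (y axis; SMC, smooth muscle cell; HPC, hematopoietic progenitor) in the ND library (blue) and the HFD library (red), with exact Poisson 95% intervals as bars. Il6st, Lifr, Osmr and Socs3 are high in the mesenchymal-like and endothelial-like rows. Lifr, Osmr and Socs3 are also high in the pericyte/SMC-like row, where Il6st is at 34.8 and 37.3. Lifr is at 74.3 and 53.9 in dendritic-like cells, and Il6ra is highest in macrophage/monocyte-like cells (129 and 127). Pim1 is high in most blood classes but not in HPC-like (189 and 246) and erythroid-like cells (109.5 and 194). For Socs2 the mesenchymal-like points lie apart (65.4 and 31.4).

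The comparison of HFD with ND asks whether the pathway differed with diet within each class. Among 50 pairs of a member and one of the 8 classes with at least 100 UMIs over both libraries, 2 were at least 1.5-fold lower in HFD and 0 were at least 1.5-fold higher. The 2 pairs, Socs2 and Il6ra in mesenchymal-like cells, are 4.0% of 50, beside 2.91% lower and 1.98% higher among all 48186 pairs of a gene and a class, so that the share is near the background. The members' log2 ratios (HFD over ND) had a median of −0.20 in mesenchymal-like cells (9 members; all 8959 genes 0.05) and −0.40 in neutrophil-like cells (6 members; all 7680 genes −0.06). It was 0.01 in endothelial-like cells (8 members; all genes 0.03), 0.05 in cells of the macrophage/monocyte-like class (7; 0.04), −0.09 in cells of the T cell-like class (7; 0.05), −0.13 in NK-like (3; 0.06), 0.07 in B cell-like (7; 0.05) and 0.34 in hematopoietic progenitor-like cells (3; 0.01).

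Among the 50 pairs, Socs2 in mesenchymal-like cells had the largest ratio in either direction. In mesenchymal-like cells it had 315 UMIs in 410 ND cells and 220 UMIs in 672 HFD cells, 65.4 UPM (58.4 to 73.0) against 31.4 (27.4 to 35.9). HFD was 2.08-fold lower, a log2 ratio of −1.06 (−1.31 to −0.80). A Socs2 UMI was seen in 37.1% of the ND and 19.6% of the HFD cells of this class and, at 1000 UMIs per cell, 6.34% (4.18 to 9.15) and 2.10% (1.16 to 3.51), while neutrophil-like cells, which hold little Socs2 (median depths 4125 and 4303 UMIs), had 0.542% and 0.371% unthinned. The thinned data hold too few UMIs to enter the count. Endothelial-like cells, with a higher level, had a log2 ratio of 0.05 (−0.40 to 0.53), and B cell-like cells 0.16 (−0.11 to 0.43). Among classes with fewer UMIs of Socs2, its level was lower in HFD in pericyte and smooth muscle-like (−1.57, −3.20 to −0.15, on 12 and 7 UMIs), neutrophil-like (−1.20, −2.56 to −0.05, on 20 and 9) and NK-like cells (−1.08, −2.52 to 0.11, on 20 and 8). T cell-like (−0.04, on 28 and 21), macrophage/monocyte-like (0.11, on 12 and 13) and hematopoietic progenitor-like cells (0.44, on 13 and 13) had intervals that included 0. Basophil and mast-like cells were higher (1.59, 0.17 to 3.49, on 5 and 16).

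Il6ra in mesenchymal-like cells had 140 UMIs in ND and 118 in HFD, 29.1 UPM (24.5 to 34.3) against 16.9 (14.0 to 20.2). The level was 1.72-fold lower in HFD, with a log2 ratio of −0.79 (−1.15 to −0.42), and cells with a UMI were 21.7% and 11.9%, or 2.68% (1.35 to 4.75) and 1.65% (0.829 to 2.94) when thinned. NK-like cells, with median depths of 5072 and 5344.5 UMIs, had Il6ra UMIs in 0.763% and 0.926% of cells. Neutrophil-like cells were 1.36-fold lower (−0.44, −0.62 to −0.27), whereas macrophage/monocyte-like cells, in which Il6ra was highest, had a ratio of −0.03 (−0.17 to 0.11).

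Neutrophil RNA differed between the mesenchymal-like cells of the 2 libraries. All 10 neutrophil markers had UMIs in them, with a summed level of 20990 UPM in ND and 10670 in HFD (neutrophil-like cells 375400 and 401800), and the 9 macrophage/monocyte markers summed to 114 and 40.6. When the 5% of cells of each library with the highest doublet scores were left out, the neutrophil sum in mesenchymal-like cells was 4874 and 6161 UPM. Socs2 was then at 69.4 and 33.1 UPM and Il6ra at 31.5 and 16.4. Without subclusters 3 and 5, of whose cells 44.3% and 61.1% had such scores, the sum was 4830 and 2512, Socs2 67.1 and 36.1 and Il6ra 29.9 and 16.2. The part of neutrophil RNA in the Socs2 and Il6ra differences was not tested.

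Lifr and Osmr were on the higher side in HFD mesenchymal-like cells. Lifr had 225 and 485 UMIs, 46.7 UPM (40.8 to 53.2) against 69.3 (63.3 to 75.7), a log2 ratio of 0.57 (0.34 to 0.80) just short of 1.5-fold. With clusters weighted alike in both libraries the ratio was 0.25, and in cells thinned to 1000 UMIs it was −0.21. Osmr had 142 and 269 UMIs with a ratio of 0.38 (0.08 to 0.69), and −0.35 when thinned. The thinned levels, 90.2 and 78.2 UPM for Lifr and 43.9 and 34.6 for Osmr, rest on few UMIs, and the cause of the change of sign was not tested. Il6st (0.13, 0.00 to 0.27) and Stat3 (0.14, −0.04 to 0.32) differed little, and Cish had 41 and 28 UMIs, too few for the count.

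The levels of Socs3 and Pim1 in mesenchymal-like cells were lower in HFD by less than 1.5-fold. Socs3 had 3415 and 4054 UMIs and a log2 ratio of −0.29 (−0.36 to −0.23), and was seen in 83.2% and 76.5% of cells. Pim1 had a ratio of −0.49 (−0.61 to −0.38), which became −0.62 (252 against 165 UPM) without the highest doublet scores. Socs1 had a ratio of −0.20 (−0.39 to −0.01). Socs3 in macrophage/monocyte-like cells was also lower (−0.29, −0.46 to −0.13), with Pim1 there higher (0.19, 0.13 to 0.25). In the small class of pericyte and smooth muscle-like cells (31 and 59 cells) Socs3 had a ratio of −0.49 (−0.74 to −0.23).

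Early-response and dissociation genes, known to be induced during tissue digestion, were also lower in HFD. The summed level of 26 such genes was lower in HFD in all 8 classes, from 34050 to 26130 UPM in mesenchymal-like, 47080 to 29560 in endothelial-like, 29430 to 18130 in macrophage/monocyte-like and 15290 to 9570 in neutrophil-like cells. In mesenchymal-like cells all 26 had a log2 ratio below 0 and 3 were at least 1.5-fold lower (background 2.86% lower and 3.49% higher), among them the chaperone genes Hspa1b (−1.47) and Hspa1a (−1.24) and the transcription factor gene Atf3 (−0.79). In neutrophil-like cells 25 of 26 had a ratio below 0 and 17 were at least 1.5-fold lower (background 3.79% lower and 1.2% higher), led by Hspa1a (−2.09), Jun (−2.05) and Hspa1b (−1.75). The part of these genes in the Socs3 and Pim1 differences was not tested. In T cell-like, NK-like, B cell-like and hematopoietic progenitor-like cells the sums were 24240 and 15690, 25420 and 22600, 24110 and 14660, and 11740 and 6255 UPM. The Socs3 ratio in these classes, in the same order, was 0.07 (−0.22 to 0.35), −0.13 (−0.61 to 0.35), −0.36 (−0.82 to 0.09) and −0.95 (−1.79 to −0.20), the last on 53 and 20 UMIs.

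**Figure D2:**
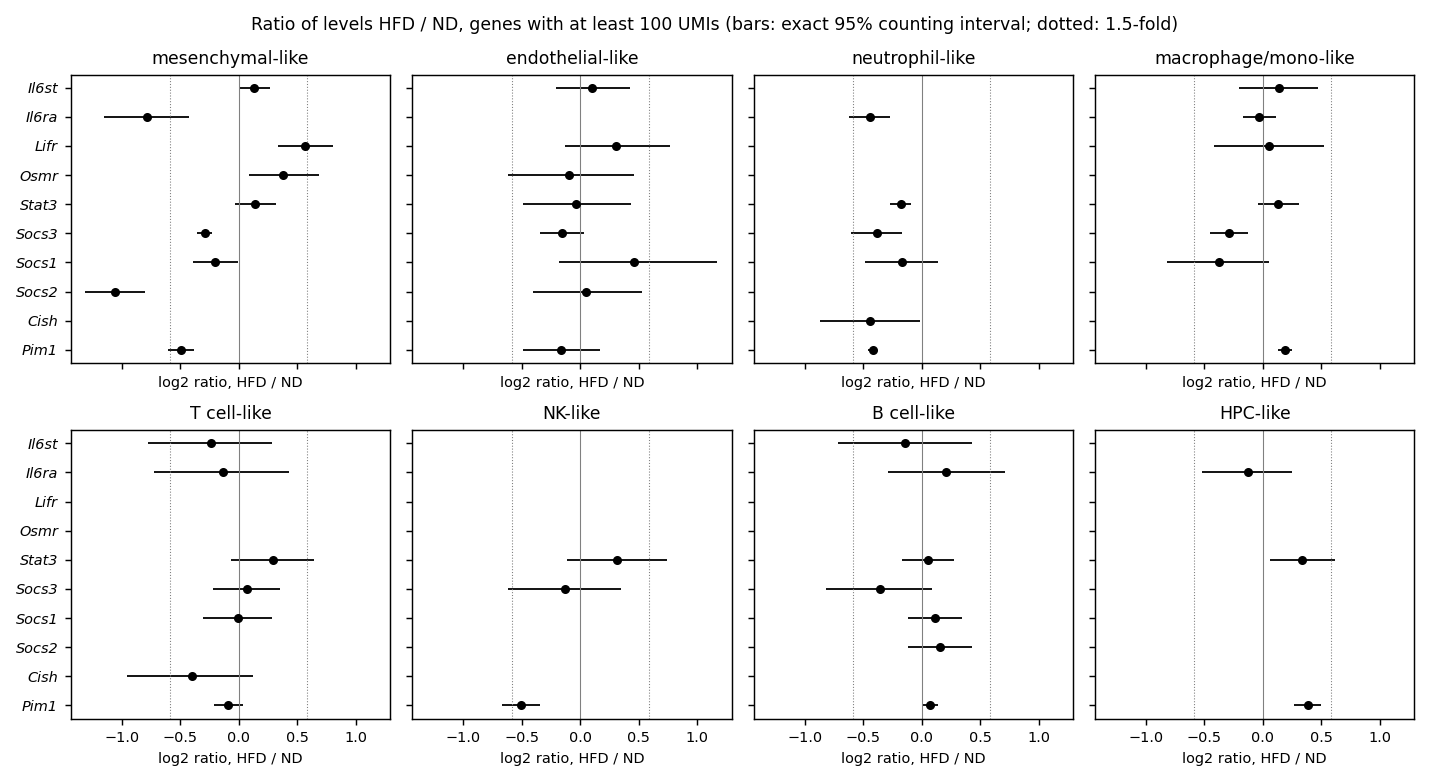
Log2 ratio of the level in HFD over ND (x axes) for members with at least 100 UMIs over both libraries in 8 cell classes (panels), with exact 95% counting intervals as bars and dotted lines at 1.5-fold. Socs2 (−1.06) and Il6ra (−0.79) in mesenchymal-like cells are the points beyond a dotted line. All 6 points of neutrophil-like cells lie below 0, where the median over all genes of that class was −0.06.

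Mesenchymal-like cells clustered again gave progenitor-like cells with Ly6a, Pi16 and Dpp4 (189 ND and 270 HFD cells), tenocyte-like cells with Scx and Tnmd (98 and 163), osteoblast-like cells with Bglap and Ibsp (58 and 129) and 3 unnamed subclusters. Subcluster 3 (41 and 47 cells) held cartilage genes together with neutrophil genes, with neutrophil markers at 109600 and 71980 UPM, and subclusters 4 (20 and 49 cells) and 5 (4 and 14) had too few markers.

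Socs2 levels were lower in HFD in each of these subclusters. In progenitor-like cells it was at 62.3 UPM (139 UMIs) in ND and 31.5 (94 UMIs) in HFD, a log2 ratio of −0.98 (−1.38 to −0.59). Tenocyte-like cells held 82.9 and 46.2 UPM (−0.84, −1.30 to −0.40). In osteoblast-like cells the levels were 49.9 and 35.2 on 27 and 39 UMIs, and the interval of the ratio, −0.51 (−1.25 to 0.26), included 0. The neutrophil marker sum in progenitor-like cells was 2030 and 1096 UPM. Unnamed subcluster 3 had 41 and 6 UMIs, 54.9 and 7.32 UPM. Subclusters 4 (−2.49, −6.07 to −0.06, on 5 and 2 UMIs) and 5 (−3.30, −6.83 to −1.13, on 7 and 2) rested on few UMIs.

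Il6ra was, among the named subclusters, mainly a gene of progenitor-like cells, at 45.3 UPM (101 UMIs) in ND and 31.5 (94 UMIs) in HFD. The ratio there was −0.52 (−0.94 to −0.10), which is less than 1.5-fold. Tenocyte-like cells had 5 Il6ra UMIs of 1158010 in ND and 0 of 1668206 in HFD, and osteoblast-like cells 9 and 1. Unnamed subcluster 3 had 21 and 19 UMIs (28.1 and 23.2 UPM), and subclusters 4 and 5 had at most 4 per library. In subcluster 4 the 4 ND UMIs, of only 46065, gave 86.8 UPM (23.7 to 222), an interval that included the progenitor-like level. In ND 46.1% and in HFD 40.2% of mesenchymal-like cells were progenitor-like, and with subclusters weighted alike the class ratio was −0.98.

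The receptor Lifr was mainly a gene of osteoblast-like cells, with 220 UPM in ND and 271 in HFD (0.30, −0.01 to 0.62), against 34.5 and 33.9 in progenitor-like and 10.4 and 19.8 in tenocyte-like cells. Osteoblast-like cells made up 14.1% of ND and 19.2% of HFD mesenchymal-like cells, and with subclusters weighted alike the class ratio of 0.57 was 0.27. Among the named subclusters Osmr was instead highest in progenitor-like cells (42.1 and 52.0 UPM), followed by osteoblast-like (33.3 and 24.4, on 18 and 27 UMIs) and tenocyte-like cells (6.91 and 10.8, on 8 and 18 UMIs). Il6st was at 175 and 203 UPM in progenitor-like, 136 and 150 in tenocyte-like and 128 and 136 in osteoblast-like cells.

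Among the named subclusters Socs3 was highest in progenitor-like cells, with 825 and 742 UPM, and its log2 ratio was −0.15 (−0.24 to −0.06) there, −0.46 (−0.61 to −0.31) in tenocyte-like and −0.53 (−0.72 to −0.33) in osteoblast-like cells. Pim1 was at 218 and 170 UPM in progenitor-like, 289 and 183 in tenocyte-like and 214 and 133 in osteoblast-like cells. The Pim1 ratios were −0.36, −0.66 and −0.69 in this order. The last value depended on the clustering. Cluster 18 of the first clustering, also with Bglap and Ibsp (59 and 130 cells), held 175 and 183 UPM of Pim1. Its ratio was 0.06 (−0.30 to 0.44). The neutrophil marker sum was 11810 UPM in ND and 1895 in HFD in tenocyte-like cells, and in osteoblast-like cells it differed in the opposite direction, with 1611 and 7130. Socs1 was at 90.5 and 78.8 UPM in progenitor-like, 91.5 and 89.9 in tenocyte-like and 99.8 and 55.9 in osteoblast-like cells (−0.84, −1.39 to −0.28, on 54 and 62 UMIs).

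**Figure D3:**
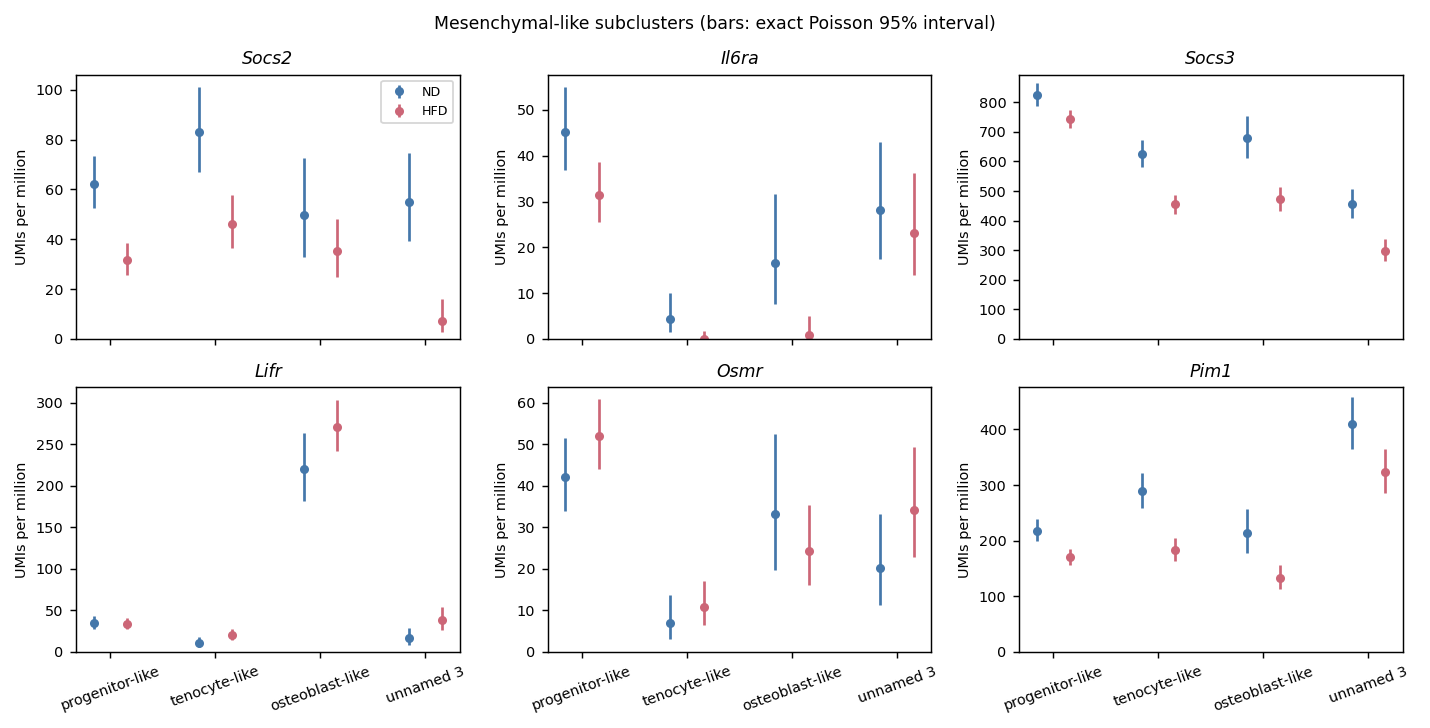
Levels of 6 members (y axes, UPM) in 3 named subclusters of mesenchymal-like cells and in unnamed subcluster 3 (x axes), in ND (blue) and HFD (red), with exact Poisson 95% intervals as bars. Socs2 is lower in HFD in progenitor-like (62.3 and 31.5) and tenocyte-like cells (82.9 and 46.2), Il6ra is lower in tenocyte-like and osteoblast-like than in progenitor-like cells, and Lifr is concentrated in osteoblast-like cells (220 and 271).

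In neutrophil-like cells all 6 members with at least 100 UMIs had a lower level in HFD. The median log2 ratio over all 7680 genes of the class was itself −0.06, so a ratio below 0 was common there. None of the 6 was lower by 1.5-fold (background 3.79% lower and 1.2% higher). Pim1 had 12388 UMIs in ND and 9896 in HFD, 776 UPM (763 to 790) against 581 (570 to 593), a log2 ratio of −0.42 (−0.46 to −0.38). Il6ra had a ratio of −0.44, Cish of −0.44 (−0.87 to −0.02) on 108 and 85 UMIs, Socs3 of −0.38 (−0.60 to −0.17), Stat3 of −0.18 (−0.27 to −0.09) and Socs1 of −0.17 (−0.48 to 0.14). The Socs3 ratio was past 1.5-fold with the early-response genes out of the clustering (−0.64) and in thinned cells (−0.73). With the clusters of the class weighted alike in both libraries, the median of the members was −0.16 in place of −0.40.

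Levels followed the 6 neutrophil-like clusters more than the diet. Clusters 15 and 7 were led by the granule genes Camp, Ngp and Ltf, which are made by immature neutrophils, and cluster 2 by Il1b and Il1r2. Pim1 was at 67.2 UPM in ND and 56.6 in HFD in cluster 15, 68.1 and 47.6 in cluster 7, 278 and 215 in cluster 4, 1465 and 1200 in cluster 0 and 2741 (2667 to 2816) and 2246 (2176 to 2318) in cluster 2. The lowest and highest clusters thus differed far more than the libraries did, and HFD was lower in each of these 5 clusters, with an interval of the ratio that included 0 in cluster 15 (−0.25, −0.53 to 0.04). Stat3 was at 44.2 and 47.4 UPM in cluster 15 and 207 and 195 in cluster 2, and Il6ra at 11.4 and 8.60 and at 96.4 and 92.5. The interval of the Il6ra ratio included 0 in each of the 6 clusters, with ratios of −0.20 in cluster 0, −0.06 in cluster 2 and 0.19 in cluster 16.

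Cluster 16 was almost confined to 1 library, with 223 ND and 20 HFD cells (91.8% ND). Its Pim1 level was 320 UPM in ND and 471 (338 to 639) in HFD on 41 UMIs. It held 3918 UPM of Fos and 3767 of Jun in ND, above the levels of the other neutrophil-like clusters. Clusters 4 and 7 were larger shares of the class in HFD (17.1% and 12.4%) than in ND (11.6% and 8.13%). Without the 4 clusters in which over 66% of cells came from ND, the Pim1 ratio in neutrophil-like cells was −0.50 and the median of the members −0.28.

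**Figure D4:**
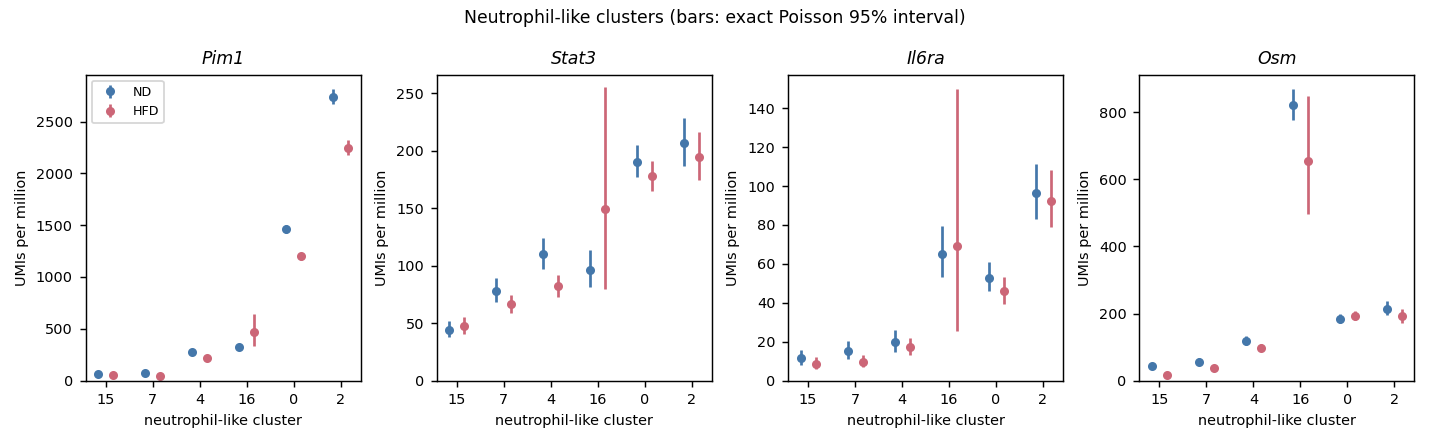
Levels (y axes, UPM) of Pim1, Stat3, Il6ra and the ligand gene Osm in the 6 neutrophil-like clusters (x axes, numbered; clusters led by granule genes on the left, the cluster led by Il1b on the right) in ND (blue) and HFD (red), with exact Poisson 95% intervals as bars. Pim1 goes from 67.2 in ND cluster 15 to 2741 in ND cluster 2, and Osm stands apart in cluster 16 (823 in ND), which has 20 HFD cells.

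Pim1 in the other blood classes did not share one direction. NK-like cells were lower in HFD (−0.50, −0.66 to −0.34, on 838 and 518 UMIs), T cell-like cells had a ratio of −0.09 (−0.21 to 0.03) and B cell-like cells of 0.07 (0.00 to 0.14). The near-equal value in B cell-like cells joined clusters that went opposite ways, with 535 UPM in ND and 224 in HFD in cluster 5 and 718 and 994 in cluster 8. Hematopoietic progenitor-like cells had a Pim1 ratio of 0.38 (0.27 to 0.50), which was −0.49 at a clustering resolution of 1.0 and −0.46 with cells kept from 200 genes on, so its direction depended on which cells formed the class. Stat3 in the same class had a ratio of 0.34 (0.06 to 0.61). Il6st there had 66 UMIs in ND and 23 in HFD, 9.58 and 4.52 UPM.

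Endothelial-like cells, which held the highest levels of Il6st, Lifr, Osmr and Socs2, had no member past 1.5-fold. Ratios of the 8 members with enough UMIs ran from −0.16 (Pim1) to 0.46 (Socs1, −0.18 to 1.17, on 27 and 73 UMIs), and all 8 intervals included 0. The neutrophil marker sum in these cells was 17170 UPM in ND and 14920 in HFD.

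Other genes of the pathway were compared by list, beside a background in mesenchymal-like cells of 2.86% lower and 3.49% higher. Among 10 ligand genes, 2 had at least 100 UMIs in mesenchymal-like cells and none was past 1.5-fold. Il6 was at 38.4 and 40.7 UPM. Both measurable members of 4 other receptor subunits, Il11ra1 (396 and 385 UPM) and Cntfr (41.3 and 38.9), had ratios of −0.04 and −0.09. Of 10 JAK and STAT genes 7 had enough UMIs and 1 was lower, Stat5a (−0.59, −1.15 to −0.03, on 58 and 56 UMIs), beside Stat6 (−0.34). All 12 other inhibitors had enough UMIs and 1 was lower, the phosphatase gene Ptpn6 (−0.83, on 66 and 54 UMIs), beside Socs5 (0.47) and Socs6 (0.31).

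Of 14 genes for other receptors that signal through JAK kinases, 6 had enough UMIs in mesenchymal-like cells. Of these 6, 3 were at least 1.5-fold lower, beside 2.86% of all genes in the class. They were Csf2rb (−1.59), Csf2ra (−1.08) and Csf3r (37.2 and 18.6 UPM), subunits of colony-stimulating factor receptors of myeloid cells. The stromal receptor Ghr, for growth hormone, was at 48.4 UPM in ND and 67.3 in HFD, and Lepr, for leptin, at 53.0 and 50.3. Among 14 genes known to respond to STAT3, 13 had enough UMIs and 11 of the 13 had a ratio below 0. Their median was −0.36, beside 0.05 over all genes of the class. Junb, Cebpb and Myc, all below 0, are also on the list of early-response genes, so the 2 lists are not independent. In the STAT3 list 2 genes were at least 1.5-fold lower, Hp (184 and 71.7 UPM, −1.36) and Lcn2 (628 and 298, −1.08), with Il4ra next (−0.58). Hp and Lcn2 encode secreted proteins that neutrophils store in granules, and Csf3r is itself one of the neutrophil markers. The neutrophil sum in these cells, 20990 and 10670 UPM, differed in the same direction, and its part in these values was not tested.

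In neutrophil-like cells 0 of 9 measurable JAK and STAT genes, 0 of 10 other inhibitors and 0 of 6 other receptors were past 1.5-fold. The background in this class was 3.79% lower and 1.2% higher. The JAK and STAT genes that differed most were Jak2 (−0.23), Stat5a (−0.22) and Stat2 (−0.17), the inhibitors Socs7 (0.40), Pias3 (−0.37) and Pias2 (−0.28), and the receptors Csf3r (483 and 403 UPM, −0.26), Il10rb (−0.25) and Il10ra (−0.20). Of 11 measurable genes known to respond to STAT3, 9 had a ratio below 0, with a median of −0.27 beside −0.06 over all genes. At least 1.5-fold lower were 2, the adhesion molecule gene Icam1 (16.2 and 9.93 UPM, −0.71) and Junb (1187 and 754, −0.65), with Cebpd next (312 and 224, −0.48). Junb is also on the list of early-response genes. Among the other IL-6 family receptor subunits 1 was measurable, Il11ra1, and it was more than 1.5-fold higher. Il11ra1 had 43 and 84 UMIs (0.86), at 2.70 and 4.94 UPM far below its level in mesenchymal-like cells.

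The ligands came from other classes than the receptors. Osm, encoding oncostatin M, was highest in basophil and mast-like cells with 272 UPM (230 to 318) in ND and 163 (131 to 200) in HFD, and had most of its UMIs in neutrophil-like cells (2954 and 1737). In that class Osm was at 185 and 102 UPM, a log2 ratio of −0.86 (−0.95 to −0.77), 1.81-fold lower in HFD. Within the largest clusters it was at 184 and 194 UPM (cluster 0, 0.07, −0.08 to 0.22) and 215 and 191 (cluster 2, −0.17, −0.38 to 0.05). Osm was lower in HFD in cluster 4 (118 and 98.4 UPM, −0.26, −0.49 to −0.04), cluster 7 (56.5 and 38.9, −0.54, −0.86 to −0.22) and cluster 15 (42.8 and 16.3, −1.38, −1.87 to −0.94). Cluster 16, with few HFD cells, held 823 and 655 (−0.32, −0.74 to 0.05). The other ligand measurable in neutrophil-like cells, Ebi3, a subunit of interleukin-27, was at 74.8 and 71.8 UPM.

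Il6 was highest in basophil and mast-like cells (545 and 532 UPM, on 303 and 294 UMIs) and next in pericyte and smooth muscle-like cells (269 and 137, on 85 and 77 UMIs). Clcf1 was highest in NK-like cells (49.2 and 34.3), and Il11 (5.19 and 2.86) and Ctf1 (5.61 and 5.29) in mesenchymal-like cells. Lif was low throughout, highest in macrophage/monocyte-like cells in ND (9.13 UPM, 61 UMIs) and in T cell-like cells in HFD (4.69, 7 UMIs). Il27 was highest in neutrophil-like cells in ND (1.19) and macrophage/monocyte-like cells in HFD (1.05), and for Cntf the classes with the highest level held 1 and 2 UMIs. Among other receptor subunits Il11ra1 and Cntfr were highest in mesenchymal-like cells of both libraries, Il27ra in NK-like (50.6, ND) and T cell-like cells (46.3, HFD) and Il31ra in dendritic-like (4.37, ND, 2 UMIs) and macrophage/monocyte-like cells (1.34, HFD).

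**Figure D5:**
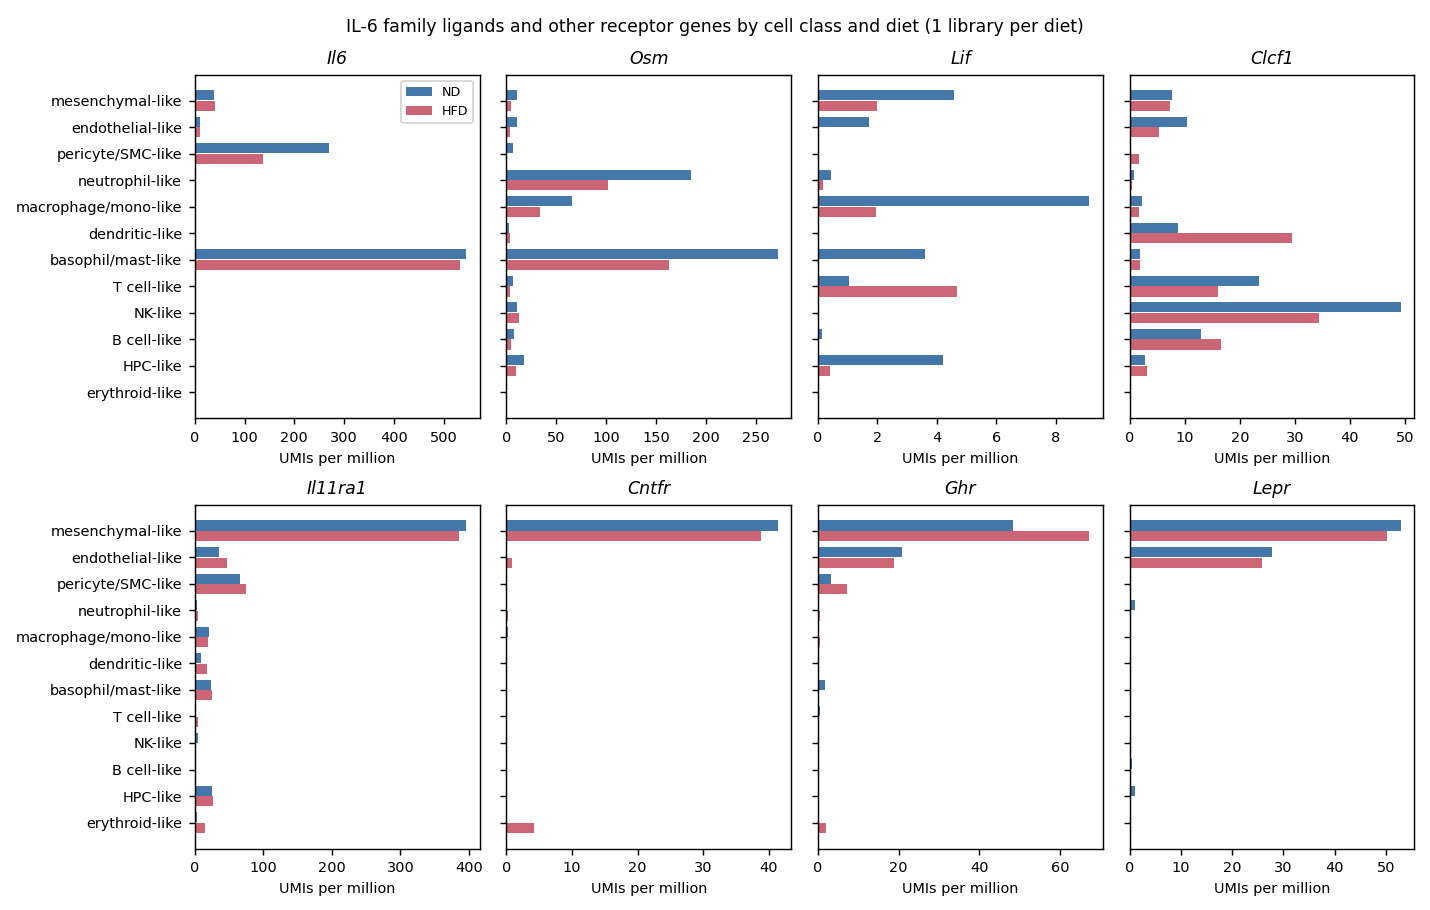
Levels (x axes, UPM, bars from 0, without intervals) of 4 IL-6 family ligand genes and of the receptor genes Il11ra1, Cntfr, Ghr and Lepr in 12 cell classes (y axis), in ND (blue) and HFD (red). Il6 and Osm are highest in basophil and mast-like cells (545 and 272 in ND), Osm is also high in neutrophil-like cells (185 and 102), and the receptor genes are highest in mesenchymal-like cells.

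Levels of the members were also correlated across the 8 classes in both libraries (16 points, which share library and depth within a diet). The vascular and stromal pattern was read from these same levels, so high correlations among its members restate it. Pericyte and smooth muscle-like cells are not among the 8 classes. Pearson correlations of log2(UPM + 1) were 0.91 for Lifr with Osmr, 0.83 for Il6st with Osmr and 0.80 for Il6st with Socs3. They were 0.70 for Socs3 with Lifr and −0.71 for Pim1 with Osmr. Among 9682 genes with at least 500 UMIs, those most like each member by this measure were Slc12a2 (0.975), Fyco1 and Arhgap5 for Il6st, Zfand2a (0.869) and Pgs1 for Il6ra, Epn2 (0.981), Fermt2 and Cgnl1 for Lifr, and Meox2 (0.998), Fmo2 and Lmo7 for Osmr. Most like Stat3 were Nfkbiz (0.896), Nod1 and Nab1. For the inhibitors they were Exoc6b (0.967), Rabac1 and Junb for Socs3, Flt3l (0.933), Slc38a2 and Bcl9l for Socs1, Siah1a (0.966), Rmnd5a and Ubr1 for Socs2 and Epb41 (0.911), Pitpnc1 and Tpst2 for Cish. Those for Pim1 were Ptprc (0.969), Zc3h12a and Bcl2a1b. These correlations describe the points and carry no test.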

How the data were processed

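For each diet the authors deposited raw UMI counts of genes by barcodes as 1 matrix, made with Cell Ranger 6.0.1 on mm10 according to the submitters' processing notes, and pooled over samples. The members and gene lists were chosen with earlier results of these data known. Cells were filtered as in the methods of the study and doublets were kept. The libraries were merged and clustered in Seurat 5.3.0 (R 4.3.3, sctransform 0.4.2): SCTransform with S and G2M scores regressed, 30 principal components, resolution 0.5, and 0.2 for mesenchymal-like subclusters. The members and listed pathway genes were left out of the variable genes. A cluster was named from markers with at least 3 detected (20 UMIs and 2-fold the median level). The required score margin of 0.5, the rule against markers of other classes among the top genes and the grouping of subclusters were set after the clusters were seen. Cluster 10 (231 ND and 165 HFD cells) stayed unnamed. Scrublet (scanpy 1.11.5) marked 10 and 11 cells at its automatic threshold, 0.166% and 0.177%, which did not work, so the highest 5% of scores served as an alternative.

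Counts were summed per class and library, and ratios were formed with 0.5 added. Levels have exact Poisson, shares exact Clopper-Pearson and ratios exact conditional intervals (scipy 1.17.1). A count of 0 was taken to allow 3 counts. Gene positions and transcripts came from the GENCODE annotation of mm10 and promoters from RefSeq. Named genes were the members, per list the 3 with the largest absolute ratio in mesenchymal-like and neutrophil-like cells, the top class of each ligand and receptor subunit with at least 20 UMIs, and the 3 genes most like each member. Ghr, Lepr, the marker genes of clusters and single clusters were named after their values were seen. The computation was tested on simulated data. Some genes that the rule names are not reported here.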

Additional observations from a re-analysis of the deposited data

Results flagged for a closer look

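Barcodes that did not pass the cell filter also held UMIs of the 10 genes, which no comparison above used. In ND, 285 such barcodes held 461 member UMIs of 452376, or 1019 UPM (928 to 1116), beside 869 in kept cells. In HFD, 412 barcodes held 470 of 529088, or 888.3 UPM (810 to 972), beside 839 in kept cells. Both levels are above the limit that a count of 0 would allow.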

How the results depend on the processing

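The count of pairs at least 1.5-fold lower in HFD, 2 of 50, stayed at the same 2 pairs in most settings. These included clustering resolutions of 0.25 (2 of 46) and 1.0 (2 of 50) and a minimum of 200 UMIs (2 of 35). The count changed in the following settings. It was 1 of 19 in cells thinned to 1000 UMIs (Socs3 in neutrophil-like cells, −0.73). With the early-response genes out of the clustering it was 3 of 50 (adding the same pair, −0.64). Without the top 5% of doublet scores it was 4 of 48 (adding Cish in T cell-like and Pim1 in mesenchymal-like cells). It was 7 of 69 with a minimum of 20 UMIs and 11 at a lower fold limit. The count of pairs higher in HFD, 0 of 50, was 1 of 19 when thinned (Pim1 in hematopoietic progenitor-like cells). With a mean over cells it was 2 of 50 (the same pair and Socs1 in endothelial-like cells). It was 1 of 69 with a minimum of 20 UMIs (Lifr in neutrophil-like cells) and 5 at the lower fold limit. The shares over all genes at these settings are not given here, so the counts are not set beside a background. A lower minimum and a lower fold limit can only add pairs. For the other settings, thinning included, the cause was not tested. The Socs2 ratio in mesenchymal-like cells ran from −0.90 without subclusters 3 and 5 to −1.62 when thinned, and the Il6ra ratio from −0.74 with equal cluster weights to −1.20 with a mean over cells, so both kept their direction under every alternative, although thinning left them under 100 UMIs. The median of the members ran from −0.11 to −0.27 in mesenchymal-like and from −0.16 to −0.47 in neutrophil-like cells. Of 697 alternative values of the 50 single ratios, 644 stayed within the counting interval and 53 did not. The settings were unequal in this: thinning to 1000 UMIs moved 24 of the 50 ratios and a mean over cells 7. Levels by class depended on them too, with 85 moved and 75 the same when thinned, and 48 and 112 with a mean over cells. Other signs were seen in 53 values of 24 ratios, all of them in ratios under 1.5-fold. The settings that left out high doublet scores, clusters mostly from ND, or subclusters 3 and 5, and that weighted subclusters alike, were chosen after seeing the data. No paired analysis was possible because each diet is 1 matrix, and leaving out a replicate was not possible for the same reason. Depth limits genes with few UMIs, such as Cish in mesenchymal-like cells.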

Other observations

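Cluster 10, which carried markers of more than 1 class and stayed unnamed, had member levels that differed between libraries at low depth (medians of 1454 UMIs in 231 ND cells and 1601 in 165 HFD cells). Socs3 was at 106 UPM (82.8 to 134) in ND and 252.5 (206.5 to 306) in HFD, Osmr at 10.5 and 67.3 (7 and 28 UMIs), Socs2 at 25.4 and 91.4 (17 and 38 UMIs) and Stat3 at 131 and 202. Pim1 was at 696 and 738. The makeup of this cluster in each library was not tested.

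In the neutrophil-like cluster 15, led by granule genes, Socs3 had 10 UMIs in ND and 53 in HFD (2.91 and 15.7 UPM), against the direction of the class. Clusters 0 (0.18, −0.22 to 0.58) and 16 (0.22, −1.57 to 1.37) also had Socs3 ratios above 0. Those of clusters 2 (−0.46, −0.82 to −0.10), 4 (−0.49, −1.47 to 0.50) and 7 (−0.57, −1.91 to 0.78) were below 0. In cluster 15 Lifr had 1 and 13 UMIs, Il6st 9 and 18 and Osmr 2 and 3. The 8 mesenchymal markers summed to 118 UPM in ND and 224 in HFD neutrophil-like cells. The part of stromal RNA in the Socs3 value of cluster 15 was not tested.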
